A study of Mus musculus with 6 samples.

Results

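The 10 genes described here encode proteins that export cholesterol from cells, take it up from lipoproteins, remodel lipoproteins in plasma or esterify cholesterol for storage. They were chosen by gene symbol with earlier results of these data known, and each of the 10 symbols matched 1 of the 52459 rows of the gene count matrix. Abca1, Abcg1, Abcg5 and Abcg8 encode ATP-binding cassette transporters that export sterols. Scarb1 and Lrp1 encode lipoprotein receptors, Lcat and Lipc encode secreted enzymes that act on lipoproteins, and Soat1 and Soat2 encode the enzymes that esterify cholesterol inside cells. All 10 passed the filter on low counts, so that no member was left out.

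RNA-Seq was performed on frozen liver tissue of 6 male Alb-Cre/Cas9 mice of the C57BL6J strain, with 3 livers in each group. The control group (sgCtrl, mice 5.1, 7.1 and 7.2) received an AAV8 vector with a U6-driven control guide RNA, and the other group (sgPrdx2, mice 1.1, 1.3 and 3.2) received the same vector type with a guide RNA against Prdx2, which encodes an enzyme that detoxifies hydrogen peroxide. Both groups were injected intravenously at 4 to 5 weeks of age, were given 100 mg/kg of the carcinogen diethylnitrosamine (DEN) 3 weeks later, and from 1 week after that were fed a high-fat diet without choline and with defined amino acids (CDA-HFD) for 6 months, to an age of 8 months. No liver without DEN and CDA-HFD was analysed here. Cas9 was switched on by the albumin promoter-driven Cre, which limits editing to hepatocytes. The share of edited cells in these livers was not measured here.

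Total counts ranged from 37462102 to 56865293 per liver, and the TMM scaling factors from edgeR ranged from 1.12 to 1.17 among the sgCtrl and from 0.805 to 0.951 among the sgPrdx2 livers. No pair of libraries agreed within sampling noise, and the smallest chi-square of a pair was 34.9 for each degree of freedom. Prdx2, the targeted gene, was at 109, 117 and 132 CPM (counts scaled to the library size after TMM) in sgCtrl livers 5.1, 7.1 and 7.2 and at 99.0, 112 and 149 CPM in sgPrdx2 livers 1.1, 1.3 and 3.2. The groups overlapped, with a log2 fold change of 0.01 (SE 0.18, adjusted p = 0.983), and since an edit made by Cas9 need not alter the level of an RNA, Prdx2 counts do not check the labels. All 10 hepatocyte markers checked were tested in these livers, with Alb as the most abundant.

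In the liver, ABCG5 and ABCG8 pair into a transporter of the canalicular membrane that secretes cholesterol into bile. ABCA1 loads cholesterol onto lipid-poor apolipoprotein A-I to start an HDL particle, and ABCG1 passes cholesterol to particles already formed, above all from macrophages. SR-BI, the product of Scarb1, takes cholesteryl esters out of HDL, and LRP1 clears remnant particles. LCAT esterifies cholesterol on HDL, and hepatic lipase, the product of Lipc, hydrolyses lipids of HDL and remnants. SOAT1 (ACAT1) is found in many cells, macrophages among them, whereas SOAT2 (ACAT2) is the form of hepatocytes and enterocytes.

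Abcg5 and Abcg8 lie head to head on chromosome 17, and the stretch between their facing start sites is shown because both genes had higher levels in every sgPrdx2 than in every sgCtrl liver. In GENCODE M21 on GRCm38, Abcg5 spans chr17:84658234-84683011 on the minus strand and Abcg8 chr17:84676302-84700333 on the plus strand, since a longer Abcg8 model starts within Abcg5. The RefSeq start sites face each other across chr17:84683012-84683120 (GRCm38.p6, plus strand), which is 109 bases long with a GC content of 45.9%. The capitals mark 2 GATA boxes, written AGATAA and read here on the minus strand as TTATCT, and 1 TATA box, written TATAAA and read here on the minus strand as TTTATA.
Abcg5-Abcg8: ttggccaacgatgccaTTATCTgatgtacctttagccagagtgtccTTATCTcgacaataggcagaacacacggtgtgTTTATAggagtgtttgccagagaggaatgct
The GATA boxes lie 17 and 47 bases from the Abcg5 start and read in the direction of Abcg5, and none of the 3 motifs overlaps another. Searched on both strands, AGATAA was found in 9.99% and TATAAA in 12.4% of all 32851 RefSeq windows of 250 bases before a start site.

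For Lcat and Soat1, which passed the test over all genes, the 150 bases before the RefSeq start are shown (GRCm38.p6, minus strand). They lie at chr8:105943403-105943552 and chr1:156474329-156474478, with a GC content of 66.0% and 64.7%, respectively. The capitals mark a GATA box (AGATAA) that ends 22 bases before the Lcat start.
Lcat: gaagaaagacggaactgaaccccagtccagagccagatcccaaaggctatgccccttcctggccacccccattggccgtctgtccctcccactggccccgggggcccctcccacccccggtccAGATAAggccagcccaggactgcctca
Soat1: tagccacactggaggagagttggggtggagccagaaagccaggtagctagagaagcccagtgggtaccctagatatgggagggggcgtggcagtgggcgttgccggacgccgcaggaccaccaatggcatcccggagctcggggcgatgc
The stretch shown for Soat1 held none of the letters searched, namely the GATA and TATA boxes above, an E-box (CACGTG, in 6.02% of the windows) and a GC box (GGGCGG, in 32.7% of the windows), each searched on both strands. RefSeq windows matched 7 of the 10 genes, and those of Abca1 held an E-box, GC boxes and a TATA box. A match describes the sequence and was not tested as a binding site.

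Among the 10 genes, 1 rose (Lcat) and 2 fell (Abcg1 and Soat1) in sgPrdx2 compared with sgCtrl livers at an adjusted p under 0.05 in edgeR's quasi-likelihood test. Of all 17032 genes tested, 567 passed that threshold, or 3.33%, with 1.79% higher and 1.54% lower. Without any adjustment, 7 of the 10 had p under 0.05, compared with 24.9% of all genes. The normalized levels of the groups did not overlap for 7 of the 10 genes, 5 higher and 2 lower in sgPrdx2 livers, whereas 34.2% of all genes had such a pattern. The median log2 fold change of the 10 was 0.35, against -0.02 for all genes tested. Because the 10 were chosen with earlier results of these data known, these comparisons with all genes are a description and not a test.

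**Figure D1:**
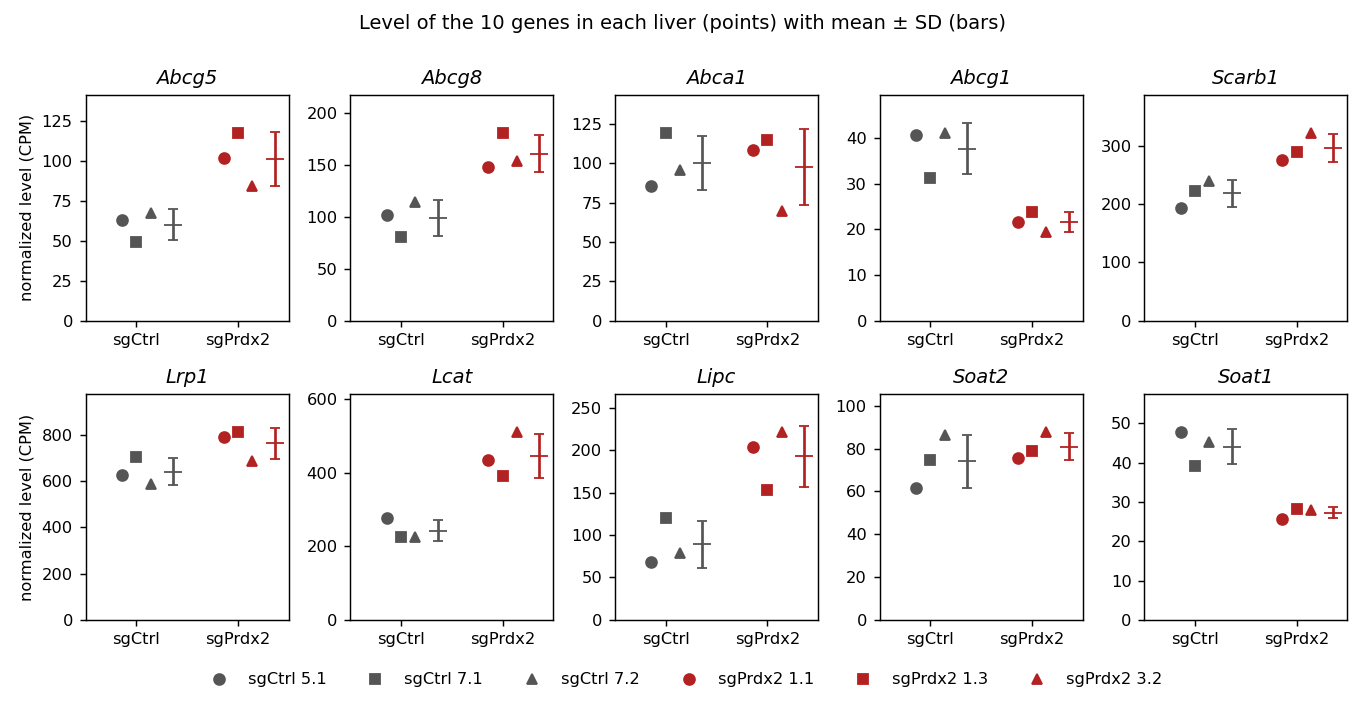
Normalized level in CPM (vertical axes, starting at 0) of each of the 10 genes in the 3 sgCtrl and 3 sgPrdx2 livers, 1 point per liver, with mean ± SD beside the points. The groups are apart for Abcg5, Abcg8, Scarb1, Lcat and Lipc (sgPrdx2 higher) and for Abcg1 and Soat1 (sgPrdx2 lower), and overlap for Abca1, Lrp1 and Soat2.

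Abcg5, a subunit of the biliary sterol transporter, was at 63.3, 49.2 and 67.7 CPM in the sgCtrl livers 5.1, 7.1 and 7.2 and at 102, 118 and 84.2 CPM in the sgPrdx2 livers 1.1, 1.3 and 3.2. Its partner Abcg8 was at 101, 80.1 and 114 CPM in the sgCtrl and at 148, 181 and 153 CPM in the sgPrdx2 livers. For both subunits every sgPrdx2 liver was above every sgCtrl liver, the lowest sgCtrl liver was 7.1 and the highest sgPrdx2 liver was 1.3. The log2 fold change was 0.75 for Abcg5 (SE 0.18, 95% interval 0.34 to 1.17, 1.69-fold) and 0.71 for Abcg8 (SE 0.17, 95% interval 0.32 to 1.1, 1.63-fold). Neither passed the adjusted threshold, with adjusted p of 0.0612 and 0.0624, respectively. Both passed with DESeq2 (adjusted p of 0.00309 and 0.00291) and without the filter on low counts (0.0353 and 0.0427). These fits called more genes, 2048 of 15329 and 1128 of 28631, against 567 of 17032 in the main fit. Over all alternatives the adjusted p ranged up to 0.224 for Abcg5 and 0.214 for Abcg8.

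Within a liver, the ratio of Abcg8 to Abcg5 counts needs no scaling between libraries. It was 1.60, 1.63 and 1.68 in the sgCtrl livers and 1.45, 1.54 and 1.82 in the sgPrdx2 livers, so that the sgPrdx2 livers spread around the sgCtrl values. The mean ratio was 1.64 ± 0.04 (SD, n = 3) for sgCtrl and 1.60 ± 0.20 (SD, n = 3) for sgPrdx2, with p = 0.8 by exact permutation (two-sided, where 0.1 is the smallest p that 3 against 3 allow). Per base of exon, the mean ratio was 1.18 and 1.16, a level of Abcg8 slightly above that of Abcg5 in both groups. The annotated exons of both genes share 82 bases on opposite strands, which is 3.02% of Abcg5 and 2.19% of Abcg8 exon bases, and whether reads were assigned by strand is not given in the sources used here. The exons of the other 8 genes share no base with another annotated gene.

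Abcg1 (GRCm38, chr17:31057675-31117988, plus strand; GENCODE M21, as for the genes that follow), which encodes the exporter that macrophages use toward HDL, was at 40.6, 31.2 and 41.2 CPM in the sgCtrl livers and fell to 21.5, 23.9 and 19.4 CPM in the sgPrdx2 livers. All sgPrdx2 livers were below the lowest sgCtrl liver, 7.1, and the difference was 1.74-fold with a log2 fold change of -0.80 (SE 0.15, 95% interval -1.15 to -0.45, adjusted p = 0.0409). Abca1 (chr4:53030787-53159895, minus strand), the exporter that starts HDL particles, was at 85.7, 119 and 95.7 CPM in the sgCtrl and at 108, 115 and 69.8 CPM in the sgPrdx2 livers. The groups overlapped, sgPrdx2 liver 3.2 being the lowest of all 6 livers. The log2 fold change of Abca1 was -0.04 (SE 0.22, adjusted p = 0.923) with a 95% interval of -0.54 to 0.46, and it was 0.11 without sgCtrl liver 7.1 and 0.16 without sgPrdx2 liver 3.2.

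**Figure D2:**
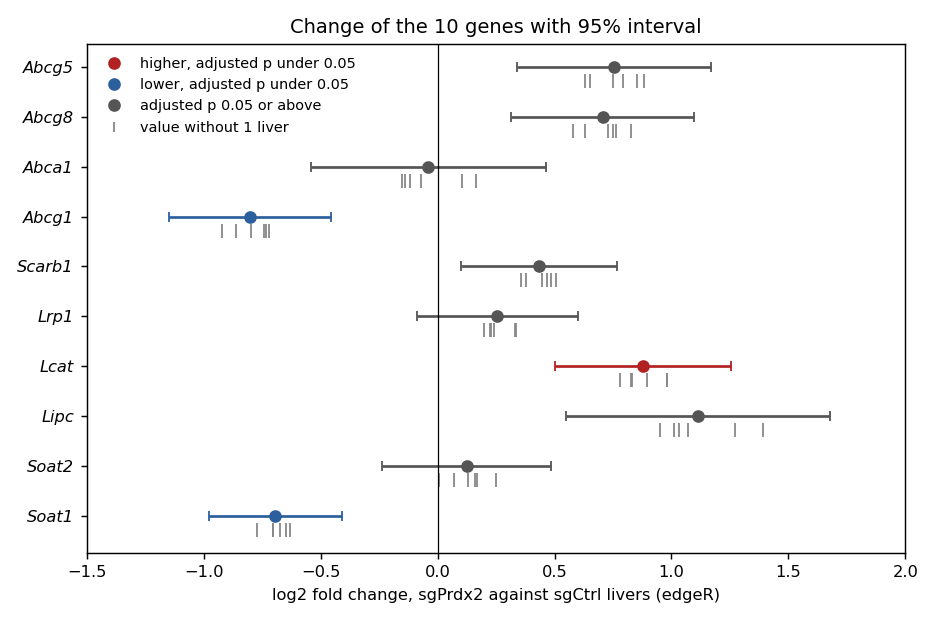
Log2 fold change of sgPrdx2 against sgCtrl livers (horizontal axis) for the 10 genes from edgeR with TMM scaling, with the 95% interval as a bar and the values with each liver left out as ticks below it. Lcat is on the right of 0 and Abcg1 and Soat1 on the left with an adjusted p under 0.05, the intervals of Abcg5, Abcg8, Scarb1 and Lipc also lie above 0, and those of Abca1, Lrp1 and Soat2 include 0, with Lrp1 and Soat2 below 0 under the 2 scalings to housekeeping genes and to total counts.

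Of the receptors, Scarb1 (chr5:125277087-125341094, minus strand), which encodes the HDL receptor SR-BI, was at 194, 223 and 240 CPM in the sgCtrl livers and at 276, 289 and 322 CPM in the sgPrdx2 livers. The groups did not overlap, but the 1.35-fold difference had an adjusted p of 0.124 (log2 fold change 0.44, SE 0.14, 95% interval 0.10 to 0.77). DESeq2, which called more genes than edgeR, gave Scarb1 an adjusted p of 0.0372, and over all alternatives the adjusted p ranged up to 0.759. Lrp1 (chr10:127538161-127621148, minus strand), which encodes the remnant receptor, had the most counts of the 10 genes, at 626, 704 and 589 CPM in the sgCtrl livers and 790, 813 and 687 CPM in the sgPrdx2 livers. The groups overlapped, since sgPrdx2 liver 3.2 was below sgCtrl liver 7.1. The log2 fold change of Lrp1 was 0.26 (SE 0.15, 95% interval -0.09 to 0.60, adjusted p = 0.323), and it was -0.11 both with scaling to 6 housekeeping genes and with scaling to total counts only. With TMM, the housekeeping genes Atp5b (0.45), Bag6 (0.26), Cox8a (0.65) and Ndufa2 (0.68) were themselves higher in every sgPrdx2 than in every sgCtrl liver. Hint1 (0.42) and Hnrnpa2b1 (-0.07) overlapped, and none of the 6 had an adjusted p under 0.05. The housekeeping and total count scalings moved the median of all genes to -0.38 and -0.39, so that relative to the median gene Lrp1 was at 0.28 under each of them. Subtracting the median takes out most of a change of scaling, so this value is not a second test.

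The enzymes that act on lipoproteins in plasma had the largest positive log2 fold changes of the 10 genes. Lcat (chr8:105939551-105943382, minus strand), which encodes the enzyme that esterifies cholesterol on HDL, was at 276, 226 and 226 CPM in the sgCtrl livers and rose to 435, 392 and 511 CPM in the sgPrdx2 livers. The lowest sgPrdx2 liver, 1.3, was well above the highest sgCtrl liver, 5.1, and the difference was 1.84-fold with a log2 fold change of 0.88 (SE 0.16, 95% interval 0.50 to 1.25, adjusted p = 0.0409). With the housekeeping scaling the log2 fold change of Lcat was 0.49 and the adjusted p 0.0841, and with total counts only these were 0.49 and 0.0515. The call was thus lost with both. Relative to the median gene Lcat was at 0.87 and 0.88, which again takes out most of the change of scaling and is not a second test. Lipc (chr9:70798128-70952226, minus strand), which encodes hepatic lipase, was at 67.9, 121 and 79.1 CPM in the sgCtrl livers and at 204, 153 and 222 CPM in the sgPrdx2 livers. The groups were apart, with sgCtrl liver 7.1 the highest of its group and sgPrdx2 liver 1.3 the lowest of the other. Lipc had the largest fold change of the 10 genes, 2.16-fold with a log2 fold change of 1.11 (95% interval 0.55 to 1.68), but also the largest error (SE 0.24), and its adjusted p was 0.0532. It passed with DESeq2 (adjusted p = 0.000418), without a filter (0.0135), with at least 10 counts in every liver (0.0489) and with total counts only (0.0489). Each of these fits called more genes than the main fit, and over all alternatives the adjusted p of Lipc ranged up to 0.175. Without sgCtrl liver 7.1 the log2 fold change of Lipc was 1.39 with an adjusted p of 0.0378.

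The genes of cholesterol esterification differed from each other. Soat1 (chr1:156424525-156474331, minus strand), the gene of the form used by macrophages and many other cells, was at 47.9, 39.1 and 45.4 CPM in the sgCtrl livers and fell to 25.6, 28.3 and 28.0 CPM in the sgPrdx2 livers. The groups were well apart, and the 1.62-fold difference had a log2 fold change of -0.69 (SE 0.12, 95% interval -0.98 to -0.41, adjusted p = 0.0396). Soat2 (chr15:102150526-102163469, plus strand), the hepatocyte form, was at 61.4, 74.6 and 86.2 CPM in the sgCtrl and at 75.8, 78.8 and 87.8 CPM in the sgPrdx2 livers. The groups overlapped, and the log2 fold change was 0.13 (SE 0.16, 95% interval -0.24 to 0.49, adjusted p = 0.647), or -0.25 under both the housekeeping and the total count scaling. The latter is 0.14 above the median of all genes in each, a difference that again is not a second test.

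The ratio of Soat2 to Soat1 counts, taken within each liver, was 1.28, 1.91 and 1.90 in the sgCtrl livers and 2.96, 2.79 and 3.13 in the sgPrdx2 livers. Every sgPrdx2 liver was above every sgCtrl liver, and sgCtrl liver 5.1 was below the rest of its group. The mean was 1.70 ± 0.36 (SD, n = 3) for sgCtrl and 2.96 ± 0.17 (SD, n = 3) for sgPrdx2. The log2 ratios differed by 0.83 on average, or 1.77-fold, for which the two-sided exact permutation test gave p = 0.1, the smallest it can give. Per base of exon, the mean ratio was 7.51 in sgCtrl and 13.1 in sgPrdx2 livers, so that Soat2 was the more abundant of the 2 transcripts in both groups.

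**Figure D3:**
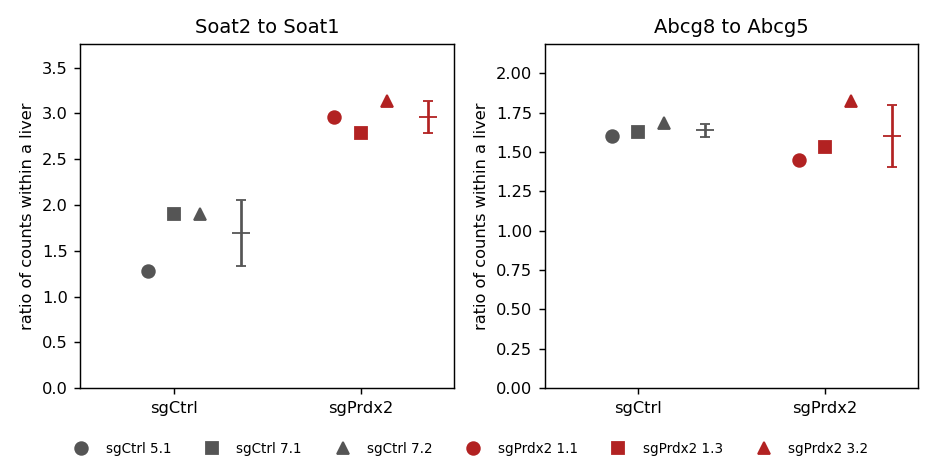
Ratio of counts within each liver (vertical axes, starting at 0) for Soat2 to Soat1 and for Abcg8 to Abcg5, 1 point per liver, with mean ± SD beside the points. The Soat2 to Soat1 ratio lies between 1.28 and 1.91 in sgCtrl and between 2.79 and 3.13 in sgPrdx2 livers, and the Abcg8 to Abcg5 ratio overlaps between the groups.

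Per kilobase of exon, the level of Lcat stood apart from the other 9 genes, with 181 ± 21.6 RPKM (CPM per kilobase; SD, n = 3) for sgCtrl and 332 ± 44.9 RPKM (SD, n = 3) for sgPrdx2. It ranked 189 among the 16540 genes with an exon length. In the sgCtrl livers, Lipc (41.5 RPKM), Lrp1 (36.1), Soat2 (33.5), Abcg8 (26.3), Scarb1 (25.7) and Abcg5 (22.2) followed, and each of these overlapped its neighbour in this order within 1 SD. Abca1 (9.68 RPKM) was lower than these, and Abcg1 (5.16) and Soat1 (4.51) were lowest and overlapped each other within 1 SD. In the sgPrdx2 livers, Lipc (89.8 RPKM) was second and apart from Lrp1 (43.1), Abcg8 (42.9), Abcg5 (37.4), Soat2 (36.5) and Scarb1 (34.8), whose neighbours overlapped. Abca1 (9.41 RPKM), Abcg1 (2.96) and Soat1 (2.79) were again last.

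The 10 genes are used by different liver cells, and in bulk tissue fewer cells of a type and less RNA per cell cannot be told apart. The summed level of 10 hepatocyte markers was 68756 to 73841 CPM in sgCtrl and 118100 to 149720 CPM in sgPrdx2 livers, and all 10 were higher in each sgPrdx2 liver, 5 of them with an adjusted p under 0.05. Of all genes tested, 16.7% were higher in sgPrdx2 livers without overlap and 1.79% were called higher. The summed level of 14 macrophage markers was 4180 to 4874 CPM in sgCtrl and 2798 to 3592 CPM in sgPrdx2 livers. All 14 had a negative log2 fold change, 7 had an unadjusted p under 0.05, and 3 fell (Gpnmb, Mpeg1 and Itgam). The groups did not overlap for 6 of them, or 42.9%, each lower in sgPrdx2 livers. Of all genes, 17.5% were lower without overlap and 34.2% had no overlap in either direction. Cd68, Clec4f, Timd4, Marco, Vsig4, Cd5l, Trem2 and Lyz2 overlapped, and Timd4, a marker of resident Kupffer cells, was below 1 CPM on average in both groups. The sums of the stellate cell and myofibroblast markers (1800 to 2055 and 1321 to 1394 CPM), of the cholangiocyte markers (1625 to 1854 and 1217 to 1391 CPM) and of the lymphocyte and leukocyte markers (254 to 289 and 127 to 150 CPM) were also lower in every sgPrdx2 than in every sgCtrl liver, whereas the endothelial sums overlapped (254 to 283 and 175 to 263 CPM). The last 2 patterns depended on the measure. By the mean of log2 CPM, the endothelial list was lower in every sgPrdx2 liver (4.84 to 4.94 and 3.97 to 4.61). The cholangiocyte list then overlapped (5.16 to 5.68 and 5.02 to 5.17). Of these lists, 0 of 8 stellate cell and myofibroblast, 0 of 6 cholangiocyte, 1 of 8 endothelial (Pecam1) and 2 of 6 lymphocyte and leukocyte markers (Cd8a and Itgb2) fell in edgeR, while 4, 2, 4 and 3 of them had an unadjusted p under 0.05. Of all genes tested, 1.54% fell and 24.9% had an unadjusted p under 0.05 in either direction. Those with a lower level in sgPrdx2 livers and an unadjusted p under 0.05 were 2033 of 17032. The part of these shifts in the changes of the 10 genes was not tested.

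Divided in each liver by the summed hepatocyte markers, an alternative added after seeing the data, Abcg5, Abcg8, Lcat and Lipc overlapped between the groups, with log2 differences of -0.21, -0.25, -0.09 and 0.17. The other 6 genes were then lower in every sgPrdx2 than in every sgCtrl liver, from -0.53 for Scarb1 to -1.66 for Soat1 and -1.76 for Abcg1. Divided by the summed macrophage markers, Abcg1 (-0.23), Soat1 (-0.12) and Abca1 (0.51) overlapped. The other 7 genes were then higher in every sgPrdx2 liver, from 0.70 for Soat2 to 1.71 for Lipc. Alb made up 82.6% to 86.1% of the hepatocyte sum and Lyz2 40.5% to 58.0% of the macrophage sum. With these left out, also added after seeing the data, the same genes overlapped, namely Abcg5 (-0.27), Abcg8 (-0.31), Lcat (-0.15) and Lipc (0.12) relative to the other 9 hepatocyte markers and Abcg1 (-0.03), Soat1 (0.08) and Abca1 (0.71) relative to the other 13 macrophage markers. Each division moves all 10 genes by about the log2 difference of the sum itself, 0.97 for the hepatocyte and -0.57 for the macrophage markers. Which genes come near 0 thus follows largely from the fold changes above and is not a second test.

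**Figure D4:**
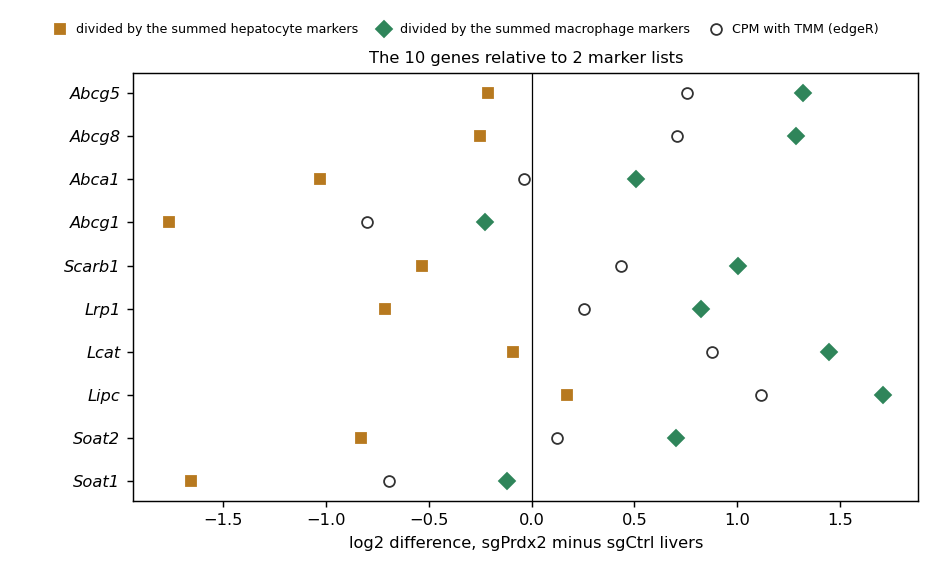
Log2 difference between sgPrdx2 and sgCtrl livers (horizontal axis) of the 10 genes as CPM (open circles), divided by the summed hepatocyte markers (squares) and divided by the summed macrophage markers (diamonds). The squares of Abcg5 (-0.21), Abcg8 (-0.25), Lcat (-0.09) and Lipc (0.17) and the diamonds of Abcg1 (-0.23) and Soat1 (-0.12) lie nearest to 0. Each division moves all 10 genes by about the same amount, so the symbols are not a second test.

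Across the 6 livers, the correlation of log2 CPM was described for each gene with 14122 genes of at least 1 CPM, all from the same 6 libraries. Abcg8 ranked second for Abcg5 (r = 0.971, after Osbp2 at 0.982), and Abcg5 ranked 7 for Abcg8, after Gm10644, Gm11993 and 1700040L02Rik in the first places. After the group means were removed, Abcg5 and Abcg8 had r = 0.859, and other pairs had higher values, among them Scarb1 and Soat2 (0.973), Abcg1 and Abcg5 (0.968), Abcg1 and Abcg8 (0.906) and Abca1 and Lrp1 (0.890). Other pairs were negative, down to Abcg1 and Lipc (-0.956). With the group means kept, as for the genes that follow, those most like Abcg1 were Tspan3, Ppard and Hdc. Those most like Soat1 were Zfp710, Ccdc80 and Tpm3. Abcg1 and Soat1 had r = 0.968 with each other, and 0.726 after the group means were removed. The closest to Lcat were Gm15318, Slc29a1 and Cyp2d37-ps, and the closest to Lipc were Sec14l2, Glo1 and Fndc4. For Scarb1 they were Prrg2, Hpd and Hgd, of which Hpd and Hgd encode enzymes of tyrosine breakdown, and for Lrp1 they were Zfp983, Slc35e2 and Setd3. For Abca1 they were Arl5a, 6430573F11Rik and Tfcp2, and for Soat2 they were Wwp2, Txndc12 and Eps8l1. These values rest on 6 livers of 2 groups and are given as a description.

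Of 46 other genes of cholesterol transport, 4 rose and 0 fell at an adjusted p under 0.05, whereas 18 had an unadjusted p under 0.05, 13 of them higher and 5 lower. Of all genes tested, 3.33% passed the adjusted threshold and 24.9% had an unadjusted p under 0.05. With DESeq2, which called 2048 of 15329 genes, 9 rose and 1 fell. With total counts only, which called 3247 of 17032 genes, 3 rose and 10 fell. With the housekeeping scaling, which called 989 of 17032 genes, 2 rose and 2 fell. The split of unadjusted p under 0.05 also turned with these scalings. It was 5 higher and 16 lower with total counts and 3 higher and 16 lower with housekeeping genes. The groups did not overlap for 34.8% of the 46 genes, close to the 34.2% of all genes, and their median log2 fold change was 0.23. The genes that rose in the main fit were Apoa1, Apoa2, Lipe and Stard4. None of the 46 was called in edgeR without sgCtrl liver 5.1, 7.1 or 7.2 or without sgPrdx2 liver 1.1 or 1.3. Without sgPrdx2 liver 3.2, 4 were called.

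Apoa1 encodes apolipoprotein A-I, the main protein of HDL, onto which ABCA1 loads cholesterol and on which LCAT acts. It was at 7746, 8152 and 8135 CPM in the sgCtrl livers and at 15366, 14002 and 23915 CPM in the sgPrdx2 livers, sgPrdx2 liver 3.2 being the highest. The log2 fold change was 1.15 (SE 0.23, adjusted p = 0.0466). Apoa2, the gene of the other main HDL protein, was at 3209, 4028 and 3741 CPM in the sgCtrl and 7545, 6295 and 11107 CPM in the sgPrdx2 livers, again with liver 3.2 on top. Its log2 fold change was 1.18 (SE 0.24, adjusted p = 0.0466), and 5 of the 6 genes of apolipoproteins and particle assembly had a positive log2 fold change.

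Lipe, the gene of hormone-sensitive lipase, which hydrolyses cholesteryl esters as well as triglycerides, was at 18.3, 18.0 and 16.1 CPM in the sgCtrl and 28.3, 24.4 and 32.4 CPM in the sgPrdx2 livers (log2 fold change 0.70, SE 0.14, adjusted p = 0.0459). Stard4, which encodes a cytosolic carrier of cholesterol, was at 41.5, 50.6 and 38.2 CPM in the sgCtrl and 86.2, 77.8 and 64.5 CPM in the sgPrdx2 livers (log2 fold change 0.81, SE 0.16, adjusted p = 0.0466). The groups were apart for both genes. Among the 12 genes of intracellular sterol traffic and ester hydrolysis, 4 had a positive and 8 a negative log2 fold change, with 2 called.

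No gene passed the adjusted threshold in edgeR in the other groups of the list. The liver X receptor gene Nr1h3, which encodes the sterol sensor that drives Abca1, Abcg1, Abcg5 and Abcg8, had a log2 fold change of 0.46 (SE 0.16, adjusted p = 0.135), and its partner Rxra had one of 0.47 (SE 0.14, adjusted p = 0.0983). Both were higher in every sgPrdx2 than in every sgCtrl liver. Of the lipoprotein receptors and their partners, 4 of 8 had a positive log2 fold change, and the smallest p values were those of Sort1 (-0.44, adjusted p = 0.109), a sorting receptor, and Mylip (-0.55, adjusted p = 0.147), whose product degrades the LDL receptor. Of the lipases, transfer proteins and their regulators, 4 of 8 were positive, and Lmf1, which encodes a lipase maturation factor, had the smallest p (0.72, adjusted p = 0.0678). The canalicular bile salt and phospholipid transporters Abcb11 (0.53, adjusted p = 0.169) and Abcb4 (0.29, adjusted p = 0.375) overlapped between the groups. Among 5 genes of cholesterol hydroxylation, Cyp27a1, a mitochondrial sterol hydroxylase, had 0.81 (adjusted p = 0.0814), and Ch25h had -0.83 (adjusted p = 0.203) at mean levels of only 1.92 and 1.07 CPM.

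**Figure D5:**
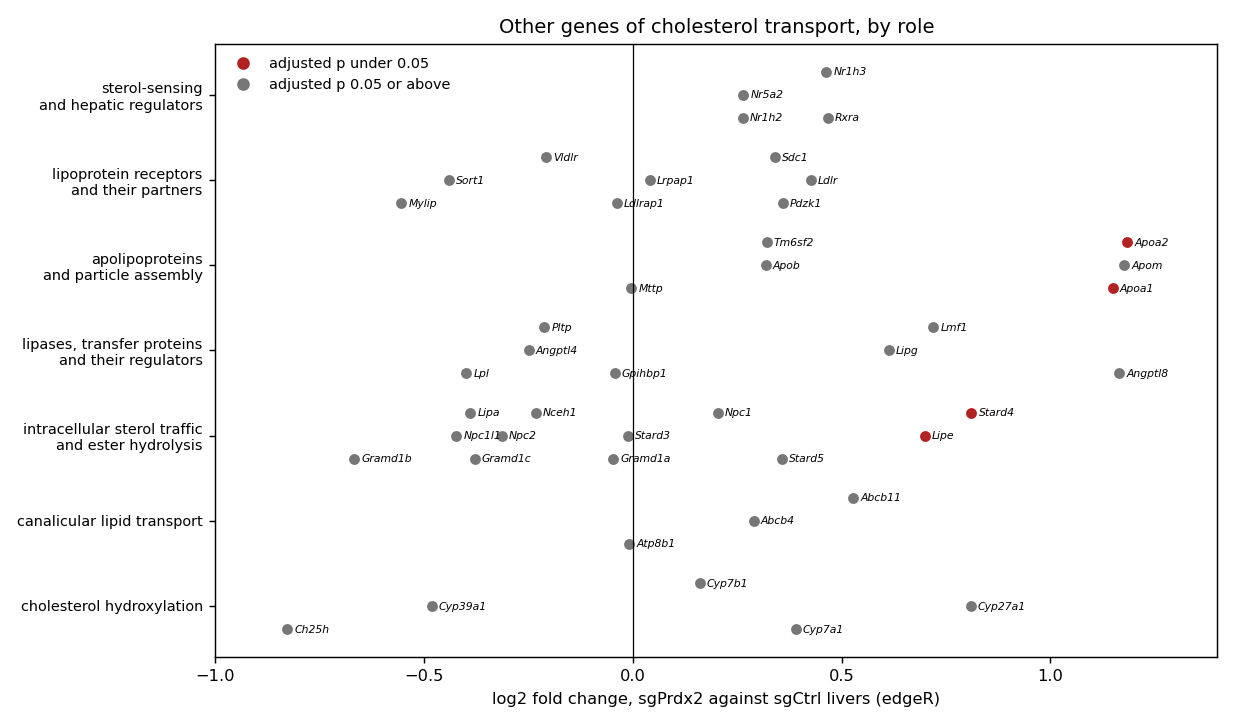
Log2 fold change of sgPrdx2 against sgCtrl livers (horizontal axis, edgeR with TMM scaling) of other genes of cholesterol transport, 1 point per gene with 1 of the 46 left out, by role on the vertical axis. The 4 genes with an adjusted p under 0.05 (Apoa1, Apoa2, Lipe and Stard4) are on the right, and the median of all genes, near 0 here, is at -0.38 and -0.39 with the housekeeping and total count scalings.

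The calls changed when a single liver was left out, which also makes a group smaller, and the cause was not tested. In edgeR, none of the 10 genes was called without sgCtrl liver 5.1, without sgCtrl liver 7.2, without sgPrdx2 liver 1.1 or without sgPrdx2 liver 1.3, where 0 of all genes passed and 6 or 7 of the 10 had an unadjusted p under 0.05. Without sgCtrl liver 7.1, Abcg1, Lipc and Soat1 passed, and without sgPrdx2 liver 3.2, Abcg5, Lcat and Soat1 passed. The log2 fold changes with 1 liver left out were between -0.92 and -0.72 for Abcg1, -0.77 and -0.63 for Soat1, and 0.78 and 0.98 for Lcat, with adjusted p of 0.0389 to 0.160, 0.0405 to 0.157 and 0.0462 to 0.162, respectively. At the threshold of 0.05, Abcg1 and Soat1 passed with all 6 livers under each other normalization, filter and tool tried.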

How the data were processed

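Reads of 6 liver libraries had been processed by the submitters, whose notes name HISAT2, HTSeq, DESeq2 and the GRCm38 build. Versions, annotation and strand setting are not given in the sources used here. The authors deposited raw read counts for 52459 genes as whole numbers, and their DESeq2 results (mean signal, log2 fold changes, scores and p-values), which were not used. Groups came from the sample labels. Here edgeR 4.0.16 under R 4.3.3 was run on the counts (filterByExpr with a minimum count of 10, TMM, glmQLFit and glmQLFTest on group alone, all 6 livers), and Benjamini-Hochberg adjusted p under 0.05 over 17032 genes was called. An SE is the log2 fold change over the square root of F, and intervals are 95%. Single values were compared by two-sided exact permutation. The biological coefficient of variation was 0.213. The smallest count of a member was 633, and counting error is only part of the error. RPKM used exon unions of GENCODE M21, with 48001 symbols matched, and promoter sequences are from RefSeq (GRCm38.p6). Fits were tested on simulated data with 200 of 17032 genes changed 4-fold, of which edgeR recovered 200 with 5 other calls and DESeq2 200 with 17 other calls. The simulation gave every gene the same spread and used changes larger than those of the members. It therefore checks the code and does not measure the power or false calls of this comparison. Members, lists and the rule for named genes (Prdx2, all members, called genes and the 2 smallest p per group of the wider list, 3 most alike genes per member) were chosen with earlier results of these data known. Values of 1 gene of the wider list that the rule names are not reported here, although it stayed in the counts. Alternatives were RLE, upper-quartile, housekeeping (Atp5b, Bag6, Cox8a, Hint1, Hnrnpa2b1 and Ndufa2) and total count scaling, DESeq2, other filters, other thresholds and leaving out each liver.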

Additional observations from a re-analysis of the deposited data

How the results depend on the processing

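Directions of Abcg1, Abcg5, Abcg8, Scarb1, Lcat, Lipc and Soat1 held under all 13 alternative fits, whereas those of Lrp1, Soat2 and Abca1 did not. The flips of Lrp1 and Soat2 came with scalings that moved the median of all genes to -0.38 (housekeeping) and -0.39 (total counts), relative to which Lrp1 was at 0.28 and Soat2 at 0.14 in both. These differences from the median are not a second test, since subtracting the median takes out most of a change of scaling. With the housekeeping scaling, Lrp1 was at -0.11 and Soat2 at -0.25, and 989 genes were called (70 higher and 919 lower, against 305 and 262). Of the genes behind that scaling, Atp5b, Bag6, Cox8a and Ndufa2 were themselves higher in every sgPrdx2 liver with TMM. With total counts only, Lrp1 was at -0.11 and Soat2 at -0.25, 3247 genes were called (206 higher and 3041 lower), and so were 13 of the wider list. Abca1 was between -0.15 and 0.16 with each liver left out, with 0.11 without sgCtrl liver 7.1 and 0.16 without sgPrdx2 liver 3.2. DESeq2 called 2048 of 15329 genes, 7 members and 10 of the wider list, and the fit without a filter called 1128 of 28631 genes, 6 members and 8 of the wider list. At an adjusted p under 0.01, edgeR called 0 genes, members or genes of the wider list (unadjusted p under 0.05: 4241 genes, 7 members and 18 of the wider list), and under 0.1 it called 1767, 6 and 10. With each liver left out in turn, edgeR called 0 to 619 genes, 0 to 3 members and 0 to 4 of the wider list, and 3114 to 4436 genes had an unadjusted p under 0.05. The 0 calls of all genes and of members came without sgCtrl liver 5.1, sgCtrl liver 7.2, sgPrdx2 liver 1.1 or sgPrdx2 liver 1.3. The wider list had 0 calls without each of these and also without sgCtrl liver 7.1. The cause of these changes was not tested. The log2 ratio of Soat2 to Soat1 differed by 0.64 to 0.92 with each liver left out, against 0.83. That of Abcg8 to Abcg5 was between -0.13 and 0.03. No paired analysis was possible because the groups share no replicate number. With 3 livers against 3, an exact permutation p cannot go below 0.1.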

Other observations

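A few genes of the wider list are given here after their values were seen. Apom, which encodes an apolipoprotein carried on HDL, was at 163, 166 and 220 CPM in the sgCtrl livers and at 346, 307 and 590 CPM in the sgPrdx2 livers, with a log2 fold change of 1.18 (SE 0.27, adjusted p = 0.0555 in edgeR). The groups did not overlap, and sgPrdx2 liver 3.2 was the highest, as for Apoa1 and Apoa2. Gramd1b, which encodes a carrier of cholesterol from the plasma membrane to the endoplasmic reticulum, was at 26.5, 22.1 and 22.4 CPM in the sgCtrl livers and at 14.0, 17.7 and 12.9 CPM in the sgPrdx2 livers. Its log2 fold change was -0.67 (SE 0.16, adjusted p = 0.0588), the lowest p among the genes of the wider list with a negative value. Lipa, the gene of the lysosomal acid lipase that frees cholesterol from its esters, had a mean of 406 CPM in sgCtrl and 310 CPM in sgPrdx2 livers without overlap (log2 fold change -0.39, SE 0.14, adjusted p = 0.146).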
